A study of Mus musculus with 7 samples.

Results

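Cohesin sites without CTCF but close to it were described in neural progenitor cells (NPCs). The sites are Smc1 ChIP-seq peaks on chromosomes 1 to 19 that shared no bp with a CTCF peak and whose edge lay at most 10 kb from the edge of the nearest CTCF peak. There were 3739 such peaks among 37113 Smc1 peaks on these chromosomes, a share of 10.1% (95% Wilson interval 9.77 to 10.4%). Another 4935 Smc1 peaks had no CTCF and lay over 10 kb from it (13.3%), and 28439 overlapped a CTCF peak by at least 1 bp (76.6%). These groups are called close, far and CTCF-overlapping peaks. Close and far peaks together, 8674 in number, are the cohesin-only peaks. CTCF binding too weak for a call, under the lowest CTCF score of 80.02, would not be seen at these sites.

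The NPCs were derived from V6.5, a male mouse embryonic stem (ES) cell line of mixed 129SvJae and C57BL/6 background. The labels state no added genotype or drug. The cells passed through 4 days as embryoid bodies without LIF, 5 to 7 days in serum-free selection medium and 2 to 4 days of growth with Fgf2 at 10 ng per ml, and were then fixed in 1% formaldehyde. ChIP with antibodies to Smc1 and to CTCF was done once for each antibody, so there is no replicate and no other cell type for the peaks. The 5C contact maps of the same study were not used here.

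Cohesin is a ring-shaped complex built on the Smc1 and Smc3 proteins and closed by Rad21. It is loaded on chromatin by Nipbl, moves along DNA and enlarges loops. CTCF is a zinc finger protein that binds a defined DNA motif and halts cohesin, which is why most cohesin peaks of mammalian cells coincide with CTCF. Cohesin peaks without CTCF are known from active enhancers and promoters, where the complex is found together with Mediator and Nipbl.

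Cohesin-only peaks were dense next to CTCF and thinned out steadily with distance. The sequence between the first and last peak of each chromosome, outside CTCF peaks, came to 2389 Mb, of which 24.5% lay within 10 kb of a CTCF peak. Of the cohesin-only peaks, 43.1% (42.1 to 44.2%) lay in that space. This is 6.38 close peaks per Mb within 10 kb and 2.74 far peaks per Mb beyond it, a ratio of 2.33. Assembly gaps and unmappable sequence, where no peak can be called, were not removed from these lengths. The nearest 250 bp held 12.2 cohesin-only peaks per Mb (exact Poisson 95% interval 10.8 to 13.9). From 1 to 2 kb the density was 8.47 per Mb (7.82 to 9.17), from 3 to 5 kb it was 5.60 (5.18 to 6.03), and from 7.5 to 10 kb it was 4.28 (3.91 to 4.68).

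The limit of 10 kb did not mark a step. From 10 to 20 kb the density was 4.00 per Mb (3.79 to 4.21), so the last band inside the limit was 1.07 times the first band outside. Beyond 200 kb it was 0.754 per Mb (0.660 to 0.858). Near CTCF, many cohesin-only peaks had another Smc1 peak beside them. When only cohesin-only peaks with no other Smc1 peak within 500 bp were counted, a setting added after the data were seen, the density was 2.37 per Mb in the nearest 250 bp and 2.88 from 250 to 500 bp. It was 8.22 per Mb from 500 bp to 1 kb and 4.08 from 7.5 to 10 kb. A peak beside a CTCF peak that itself carries Smc1 falls out of this count by construction, so the first pair of bands has few peaks left. From 500 bp outward the order of the bands was kept.

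**Figure D1:**
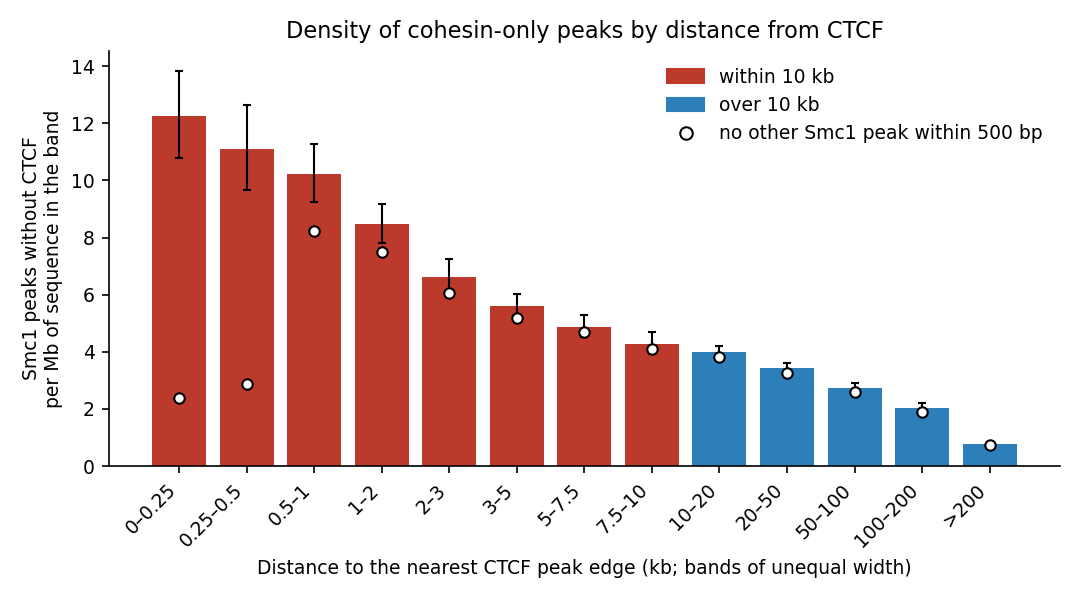
Cohesin-only Smc1 peaks per Mb of sequence outside CTCF peaks (vertical axis) in bands of distance from the nearest CTCF peak edge (horizontal axis, kb, unequal bands). Bars are counts per Mb with exact Poisson 95% intervals and circles leave out peaks with another Smc1 peak within 500 bp. Bars fall from 12.2 per Mb in the nearest band to 0.754 per Mb beyond 200 kb, with no step at 10 kb.

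The median gap of the close peaks to CTCF was 2872 bp (binomial 95% interval of the median 2728 to 3005 bp), with quartiles at 1088 and 5679 bp. A gap under 500 bp was found for 476 peaks (12.7%), under 1 kb for 871 (23.3%) and under 5 kb for 2604 (69.6%). Only 1 peak touched its CTCF peak with a gap of 0 bp. CTCF lay at the lower coordinate for 1895 close peaks and at the higher coordinate for 1844, an even split of 50.7% (49.1 to 52.3%). A CTCF peak within 10 kb on both sides was found for 693 close peaks (18.5%). The interval between the flanking CTCF peaks had a median length of 38290 bp.

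Close peaks were weak by the score of the peak caller. The score is the authors', with 80 as the lowest value in the list, and runs like the −10 log10 p-value that MACS writes, so a higher score is a surer peak. Its median was 114 (113 to 116) in close peaks, 112 (111 to 114) in far peaks and 321 (316 to 327) in CTCF-overlapping peaks. The quartiles were 94.0 and 154 in close peaks, 93.5 and 150.3 in far peaks and 165 and 618 in CTCF-overlapping peaks. Scores of 300 or more were reached by 145 close peaks (3.88%), 175 far peaks (3.55%) and 14980 CTCF-overlapping peaks (52.7%). The medians of close and far peaks differed by 2.00, with a range of −1.32 to 5.14 between the ends of their intervals, which includes 0. With a limit of 5 kb the difference was 3.30, with a range of 0.25 to 6.67. No other of the 12 alternatives described below gave a range that excludes 0. The close median was above the far median on 11 of 19 chromosomes. Against CTCF-overlapping peaks the difference of the medians was −207, and the median was lower on 19 of 19 chromosomes. Peaks of 1 library are not replicates, so no test between these classes was made, and all intervals over peaks cover counting error only.

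At a like score, close peaks were wider than CTCF-overlapping peaks. Over all scores the median width was 407 bp (401 to 412) in close peaks, 388 bp (384 to 392) in far peaks and 416 bp (414 to 418) in CTCF-overlapping peaks. That order hides the scores, since weak peaks are narrow in every class, and among Smc1 peaks with scores of at least 200 the difference of close minus CTCF-overlapping medians was 139 bp. Among peaks with scores from 80 to 100, the median was 337 bp in 1230 close peaks, 327 bp in 1724 far peaks and 306 bp in 1989 CTCF-overlapping peaks. Among scores from 150 to 200 it was 485 bp in 525 close peaks, 460.5 bp in 644 far peaks and 365 bp in 3011 CTCF-overlapping peaks. Among scores from 200 to 300 it was 568 bp (544 to 589) in 320 close peaks, 535 bp (525 to 553) in 417 far peaks and 395 bp (391 to 399) in 4298 CTCF-overlapping peaks. At scores of 500 or more it was 938 bp (715 to 1102) in 34 close peaks, 1066 bp (736 to 1177) in 32 far peaks and 495 bp (493 to 497) in 9403 CTCF-overlapping peaks.

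The ratio of close to CTCF-overlapping widths thus grew with the score, at 1.10 for scores from 80 to 100, 1.33 from 150 to 200, 1.44 from 200 to 300 and 1.89 at 500 or more. The close median was the wider on 19 of 19 chromosomes in each of the 5 bands up to 300, on 18 of 19 from 300 to 500 and on 17 of the 17 with both kinds of peak at 500 or more. Against far peaks the ratios were smaller, from 1.03 to 1.06 in the 5 bands up to 300, where the close median was the wider on 12 to 17 of 19 chromosomes. The intervals did not overlap in the band from 100 to 125, at 391 bp (383 to 400) in close peaks and 373 bp (366 to 379) in far peaks. The ratio was 0.961 from 300 to 500 and 0.880 at 500 or more, where the intervals overlapped. Without chromosome 8, which is described below, the 200 to 300 band stood at 552 bp in close peaks, 529 bp in far peaks and 393 bp in CTCF-overlapping peaks. Across peaks of 1 library, score and width correlated at Spearman rho = 0.531 in close peaks, 0.538 in far peaks and 0.579 in CTCF-overlapping peaks.

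**Figure D2:**
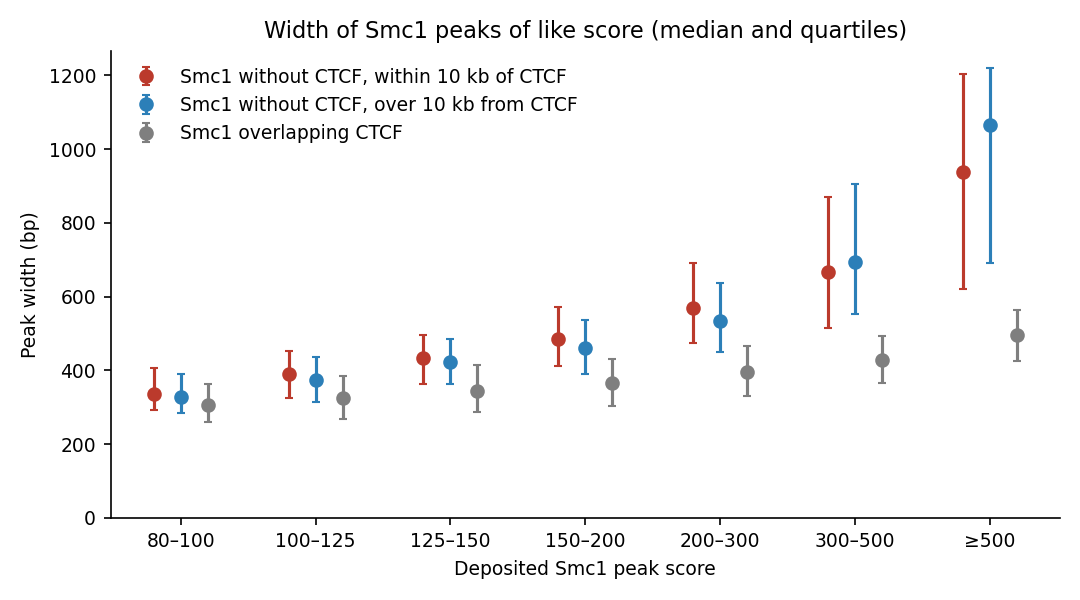
Peak width in bp (vertical axis) of close, far and CTCF-overlapping Smc1 peaks in bands of the deposited Smc1 score (horizontal axis). Points are medians and bars run over the quartiles. Close and far peaks widen together, and at scores of 200 to 300 their medians of 568 and 535 bp stand above the 395 bp of CTCF-overlapping peaks.

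Score and width differed somewhat with the gap among the close peaks. The median score was 111 (107 to 117) within 250 bp of CTCF, 121 (115 to 126) from 500 bp to 1 kb, 114 (111 to 117) from 2 to 5 kb and 111 (109 to 114) from 5 to 10 kb. The median width was 426 bp (402 to 440) within 250 bp, 439 bp (426 to 458) from 250 to 500 bp and 394 bp (387 to 404) from 5 to 10 kb. Over the 3739 peaks, the score of a close peak hardly followed the gap, with Spearman rho = −0.047. It did not follow the score of its CTCF peak, with Spearman rho = 0.0022. Each of these correlations is over peaks of the same libraries and is given as a description.

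The CTCF peaks next to close peaks carried Smc1 more often than other CTCF peaks, which include CTCF peaks beside far peaks. The differences were largest at CTCF scores from 100 to 150 and smallest at 300 or more. The close peaks had 3267 distinct CTCF peaks as their nearest, 7.80% of the CTCF list. Of these, 2361 (72.3%, 70.7 to 73.8%) overlapped an Smc1 peak of their own, against 25983 of the 38642 other CTCF peaks (67.2%, 66.8 to 67.7%). Their CTCF scores were not higher, with a median of 254 (244 to 270) against 265 (261 to 269). Counted over far peaks, the nearest CTCF peak carried Smc1 in 69.6% (68.3 to 70.9%), at a median CTCF score of 217. A high share for the CTCF score was thus not particular to close peaks. Shares by CTCF score are not given for the CTCF peaks beside far peaks. For CTCF scores from 80 to 100, 28.9% (24.5 to 33.7%) overlapped Smc1 beside close peaks and 21.3% (20.1 to 22.6%) elsewhere. For scores from 125 to 150 the shares were 52.2% (46.0 to 58.2%) and 39.4% (37.7 to 41.2%). For scores from 200 to 300 they were 76.0% (72.0 to 79.6%) and 69.0% (67.7 to 70.2%), and for scores of 500 or more they were 98.5% (97.5 to 99.1%) and 97.6% (97.3 to 97.9%). The difference was positive in each of the 7 score bands, between 0.912 and 12.7 percentage points. It was positive on 17 of 19 chromosomes over all scores, and on 11 to 17 of 19 within the bands. The intervals overlapped at 500 or more and also from 300 to 500, at 90.7% (88.1 to 92.8%) beside close peaks and 88.2% (87.4 to 89.0%) elsewhere. With Smc1 peaks within 500 bp merged, the share counted over close peaks was 69.1%, against 73.1% before merging. The share of other CTCF peaks was not recomputed after merging.

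The share was lower farther out. Shares here are counted over close or far peaks, so a CTCF peak shared by several of them enters more than once. The intervals do not allow for this. The nearest CTCF peak carried Smc1 for 80.2% (74.9 to 84.7%) of close peaks within 250 bp, 76.7% (73.2 to 79.8%) from 1 to 2 kb and 68.3% (65.5 to 70.9%) from 5 to 10 kb. The median CTCF score was 251 in the first of these bands, 272 in the second and 239 in the third. A close peak also has a CTCF peak on its other side, farther away, but within 10 kb for only 18.5% of close peaks. Over the 3739 close peaks, the nearer CTCF peak carried Smc1 in 73.1% (71.7 to 74.5%) and the farther one in 67.3% (65.8 to 68.8%), and the nearer share was the higher on 17 of 19 chromosomes. The nearer CTCF peaks had a median score of 249 (240 to 262) and the farther ones 221 (213 to 233). The sides were thus unlike in CTCF score, with which the share carrying Smc1 rises. Around far peaks the same comparison gave 69.6% for the nearer and 69.5% for the farther CTCF peak. The median CTCF scores there were 217 and 220.

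Where a CTCF peak had a single Smc1 peak, the Smc1 centre lay slightly off the CTCF centre, by a median of 42.0 bp over 28146 such CTCF peaks. In genome coordinates these offsets had no direction, with a median of −0.5 bp (−1.5 to 0.5). Beside close peaks they pointed toward the cohesin-only peak more often than away from it. Over the 2706 close peaks whose nearest CTCF peak had a single Smc1 peak, with shared CTCF peaks counted once for each close peak, the offset pointed toward the close peak in 56.6% (54.7 to 58.4%), with a median of 10.5 bp (7.5 to 14.0). For the farther flanking CTCF peak it was 52.9% (51.0 to 54.9%) and 4.5 bp (1.5 to 8). Far peaks showed an offset of like size, 57.5% (55.8 to 59.1%) and 11.0 bp (8.5 to 14.0) at the nearer CTCF peak and 58.9% (57.2 to 60.5%) and 14.5 bp (11.5 to 17) at the farther one, so it was not limited to close peaks or to the nearer CTCF peak. It was not seen within 250 bp of CTCF, where 49.0% (42.2 to 55.9%) of 200 offsets pointed toward the close peak. These offsets are far smaller than the peaks themselves. No offset toward an interval without a cohesin-only peak is given, so whether the direction goes with cohesin-only peaks was not tested.

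The next Smc1 peak lay nearer to close peaks than to the other classes, an order that the rule largely sets. The next Smc1 peak of any kind lay at a median gap of 3131 bp (2980 to 3416) from a close peak, 23151 bp from a far peak and 10453 bp from a CTCF-overlapping peak. By the rule a close peak has a CTCF peak within 10 kb, which usually carries Smc1, while a far peak has none within 10 kb. Whether the order goes beyond the rule was not tested. For 2916 close peaks (78.0%) the next Smc1 peak was a CTCF-overlapping one, and for 663 (17.7%) it was another close peak. A gap under 500 bp to the next Smc1 peak was found for 651 close peaks (17.4%, 16.2 to 18.7%), 262 far peaks (5.31%) and 1728 CTCF-overlapping peaks (6.08%). The rule enters here too, since no far peak has a CTCF peak within 500 bp. Close peaks without another Smc1 peak within 500 bp were 49 of 253 within 250 bp of CTCF and 58 of 223 from 250 to 500 bp. From 500 bp to 1 kb they were 318 of 395, and from 7.5 to 10 kb 468 of 491. Most CTCF peaks had a single close peak assigned to them, 2888 of 3267. Of the 379 CTCF peaks with 2 or more, 130 had close peaks on both sides and 249 on 1 side.

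Some close peaks lay in runs, here defined as neighbours no more than 10 kb apart. The rule confines close peaks to 24.5% of the sequence, so part of this follows from it. Runs of the other classes are not given, so no comparison with them is made. Runs of 2 or more held 913 close peaks (24.4%) in 390 runs, of which 12 had 5 or more. The longest run held 9 close peaks over 17.8 kb at chr8:129107480-129125237. Their scores ran from 91.9 to 694, and their widths from 438 to 1859 bp. The CTCF peaks beside them were weak, at scores of 189 and 90.5. The second CTCF peak, chr8:129115011-129115619, overlapped an Smc1 peak and was the nearest to 6 of the 9, all on its higher-coordinate side at gaps of 173 to 8957 bp.

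There were 3 runs of 6, of which the 2 with the highest single scores are given. One at chr19:5793848-5810852 lay between CTCF peaks with scores of 908 and 248, of which the first overlapped Smc1 and the second did not. Its scores ran from 110.2 to 560.2. The highest of them, 560.2 at chr19:5794517-5795589, lay 1038 bp from the stronger CTCF peak. The other at chr8:35867241-35888553 was nearest to 3 CTCF peaks with scores of 147, 780 and 146. Its scores were highest, at 496 and 557, beside the first of these and 144 beside the strongest. Of single CTCF peaks, chr13:29049572-29049996 (score 869) also had 6 close peaks, 5 of them on its lower-coordinate side, with scores of 96.0 to 265. There were 5 CTCF peaks with 5 close peaks each. At the one with the highest CTCF score, chr14:76902990-76903348 (score 292), all lay on the higher-coordinate side, with scores of 111 to 584.

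**Figure D3:**
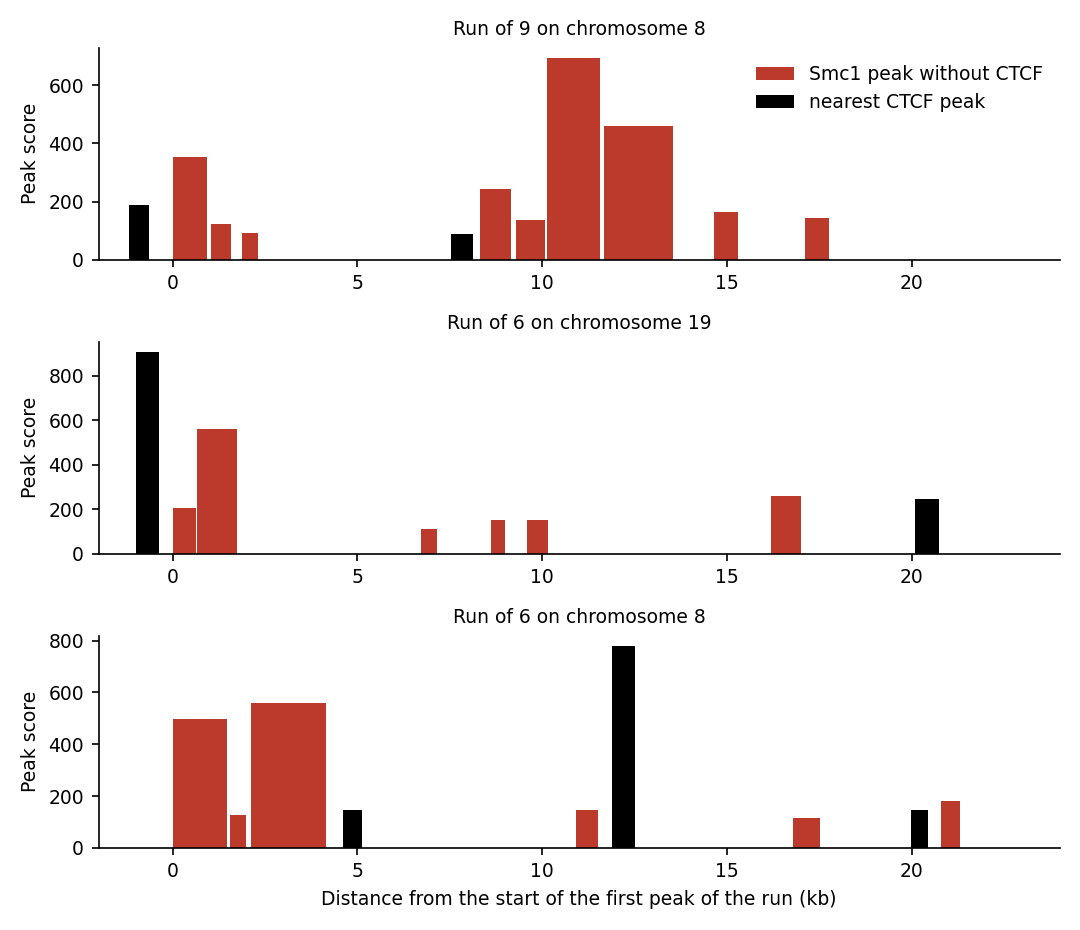
The longest run of close peaks and 2 of the 3 runs of 6, those with the highest single scores, with distance from the start of the first peak in kb (horizontal axis) and the deposited score (vertical axis, bar height). Red bars are close Smc1 peaks and black bars their nearest CTCF peaks, each drawn at its own width, and other Smc1 peaks are not drawn. In the upper panel the close peaks of scores 694 and 459 rise over a CTCF peak of score 90.5.

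The strongest close peaks were wider than the median of 407 bp. The 10 highest scores ran from 626 to 969, with widths of 543 to 1443 bp and gaps of 264 to 9114 bp. Their CTCF peaks had scores of 85.1 to 655, and 9 of the 10 overlapped Smc1, against 73.1% over all close peaks. These scores were under 200 in 5 of the 10, against 40.7% of all CTCF peaks nearest to a close peak. The highest, chr9:49606885-49607447, had a score of 969, a width of 563 bp and a gap of 1257 bp to a CTCF peak of score 85.1. Next came chr13:52349474-52350076 with 775, 560 bp from a CTCF peak of score 556, and chr14:117324301-117325235 with 722, 264 bp from one of score 325.

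Chromosome 8 held 3 of the 10, against 304 of all 3739 close peaks. Beside the peak of the longest run at 694 these were chr8:35287892-35288975 with a score of 663, at 9114 bp the farthest of the 10 from CTCF, and chr8:123839342-123840496 with 627. The one without Smc1 at its CTCF peak was chr13:91599898-91600970 (score 673), beside a CTCF peak of score 117. Chromosome 4 had chr4:139814759-139815358 and chr4:150978509-150979051, with scores of 632 and 631. The tenth was chr2:124435410-124436730, with a score of 626 and a width of 1321 bp. The widest close peak, chr5:43623375-43625491, spanned 2117 bp with a score of 329. It was followed by chr8:35869359-35871384 with 2026 bp and chr8:129119146-129121004 with 1859 bp, which belong to 2 of the runs above.

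The number of close peaks differed between chromosomes, and chromosome 8 stood apart in width. Counts ran from 112 on chromosome 19 to 304 on chromosome 8. Per Mb of chromosome there were 1.19 on chromosome 3, the lowest, 2.26 on chromosome 11 and 2.37 on chromosome 8. Chromosome 11 also had the most CTCF, 27.3 peaks per Mb, and the highest share of cohesin-only peaks that were close, 54.2% (49.8 to 58.6%). Chromosome 3, with 13.5 CTCF peaks per Mb, had the lowest share, 34.8% (30.9 to 38.9%). A denser CTCF list puts more sequence within 10 kb, so this order is in part given by the rule. Set against the CTCF list, there were 12.1 close peaks for each 100 CTCF peaks on chromosome 8 and 6.47 to 10.9 on the other chromosomes.

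On chromosome 8 the median width of close peaks was 490.5 bp (468 to 504), against 376 to 415 bp on the other 18 chromosomes. At least 600 bp wide were 68 of the 304 close peaks there (22.4%, 18.05 to 27.4%), against 10.6% (9.61 to 11.7%) elsewhere. The other lists showed the same. Medians on chromosome 8 were 461 bp in far peaks, 449 bp in CTCF-overlapping peaks and 491 bp in CTCF peaks, against 352 to 405, 402 to 429 and 424 to 464 bp elsewhere. Far peaks were also densest there, with 3.05 per Mb against 1.51 to 2.43. The median score of close peaks on chromosome 8 was 122, within the 109 to 125 of the other chromosomes. The number of copies of chromosome 8 in these cells was not measured here, and its part in these values was not tested.

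**Figure D4:**
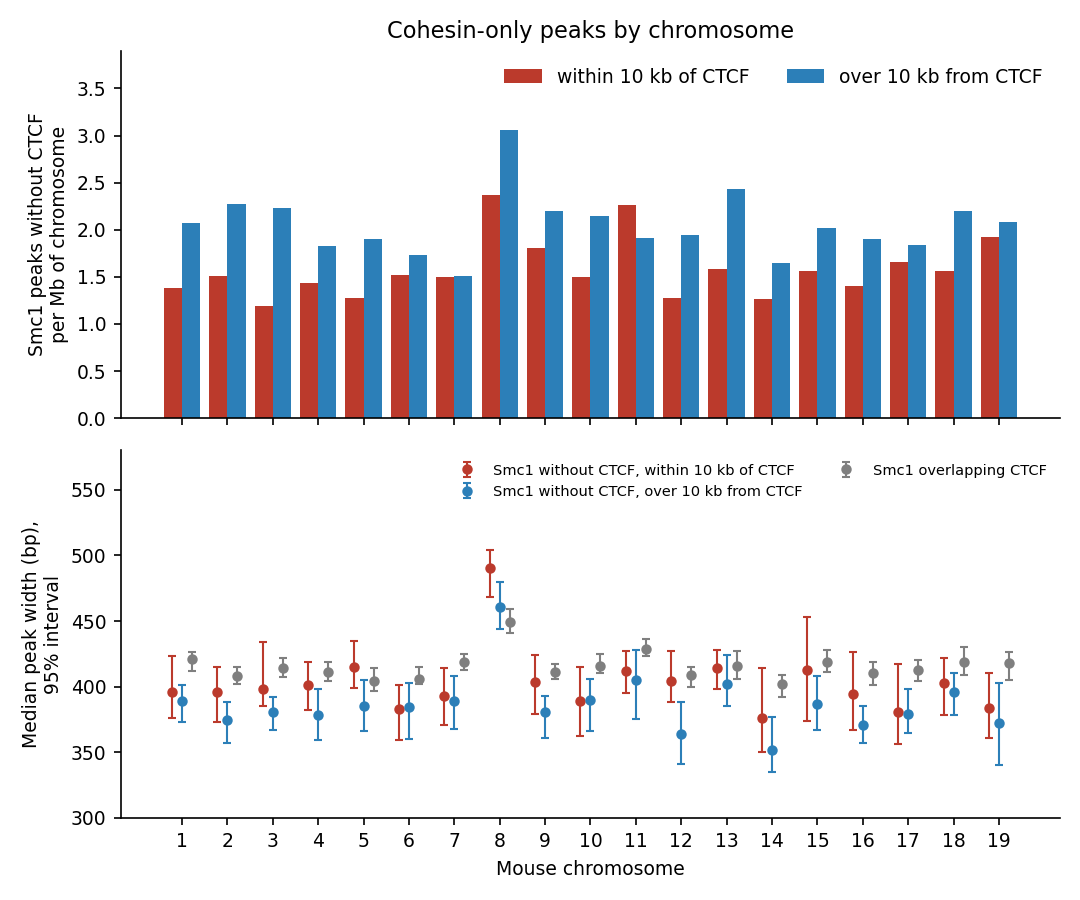
Upper panel, close and far peaks per Mb (vertical axis) on each chromosome (horizontal axis), with length taken from the first to the last peak. Lower panel, median width in bp of close, far and CTCF-overlapping peaks with binomial 95% intervals, on an axis that starts at 300 bp. On chromosome 8 all classes are wider than on the other chromosomes, with 490.5 bp in close peaks.

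The 3 close peaks nearest to the limit had gaps of 9965 to 9987 bp and scores of 112, 92.0 and 269.5, while the 3 nearest outside it had gaps of 10005 to 10027 bp and scores of 102, 97.5 and 133. At the other end, the smallest gaps were 0 bp at chr7:116850947-116851330 (score 97.6), 1 bp at chr3:68296889-68297711 (score 245) and 1 bp at chr12:72931888-72932348 (score 153). The 33 close peaks with a gap of at most 50 bp had a median score of 126, and the 33 Smc1 peaks that shared 1 to 50 bp with CTCF had a median of 104. Such small overlaps were rare, and 98.0% of CTCF-overlapping peaks shared more than 200 bp.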

How the data were processed

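CTCF and Smc1 peak lists of NPCs, 1 library each, were analysed. Reads were aligned with Bowtie to mm9, per the submitters' processing notes. The peak names of the deposited lists name MACS. The deposited lists give a score per peak, at least 80 for Smc1 and 80.02 for CTCF. The use of the input in peak calling is not stated, and the sequencing depth behind the lists is unknown. The lists hold 37991 Smc1 and 42893 CTCF peaks, with 41909 CTCF peaks on chromosomes 1 to 19.

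Gaps are bp between peak edges and were checked against bedtools 2.31.1, with a different gap in 0 of 37113 peaks. The classification was tested on simulated peaks. Coordinates are 1-based on mm9, with the lists read as BED. Computation used Python 3.11.15, pandas 2.3.3 and scipy 1.17.1. Shares have 95% Wilson intervals, medians binomial intervals and densities exact Poisson intervals. Named peaks are the 10 highest, the 3 widest, those at the edges of the rule, and 3 each of the longest runs and of the CTCF peaks with most close peaks, with ties going to the higher score. The rule and the lists were chosen with earlier results of these data known. Alternatives were other limits, score minimums, overlap rules, merging and chromosomes. Genes and sequence at the peaks, the input library and the 5C table were not analysed here.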

Additional observations from a re-analysis of the deposited data

How the results depend on the processing

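No paired analysis was possible because the peak lists have 1 library each and the result comes from no test. Of 96 values under 12 alternatives, 66 stayed within the interval of the reported value or within 1.5 times a reported count, and 27 moved beyond it. The sign turned in 3, all with Smc1 score minimums. The median width of close minus CTCF-overlapping peaks, −9 bp, was 19 bp with Smc1 scores of at least 100 and 139 bp with at least 200, where narrow weak peaks are left out. The median score of close minus far peaks was −2.60 with at least 200. That minimum left 465 close peaks.

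The share of cohesin-only peaks that were close was 30.0% with a limit of 5 kb, 58.9% with 20 kb, 39.5% and 31.0% with CTCF scores of at least 100 and 200, 39.8% when edges within 500 bp counted as overlap, 42.1% with centre to centre distances and 39.9% with Smc1 peaks within 500 bp merged. In the same order of limits, the median gap was 1659.5 and 4809 bp. It was 2451 bp with Smc1 scores of at least 200, 3203.5 bp with CTCF scores of at least 200, 3455.5 bp with the 500 bp overlap, 3201.75 bp between centres and 3424.5 bp after merging. The CTCF minimums also turned Smc1 peaks over weaker CTCF into cohesin-only peaks. With them the close peaks rose in number from 3739 to 3818 and 4596, although their share fell.

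The share of nearest CTCF peaks with Smc1 was 75.2% with a limit of 5 kb, 70.7% and 58.7% with Smc1 scores of at least 100 and 200, 78.9% and 91.2% with CTCF scores of at least 100 and 200, and 69.1% after merging. An Smc1 minimum takes Smc1 peaks from all CTCF peaks, and the share rises with CTCF score in other CTCF peaks as well. The share of other CTCF peaks was not recomputed under these settings. The median score of close minus CTCF-overlapping peaks was −217 and −236 with Smc1 scores of at least 100 and 200, and −221 and −288 with CTCF scores of at least 100 and 200. The width difference was −19 and −50 bp with those CTCF minimums. With chromosome 8 left out, added after the data were seen, 3435 close peaks remained, within 1.5 times the reported count. The other values stayed within their intervals. The alternatives for transcription starts and motifs were not run. The lists hold no read counts, so what sequencing depth limits could not be measured.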

Other observations

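The X chromosome lies outside the rule. It held 878 Smc1 and 982 CTCF peaks. By the same definition 51 Smc1 peaks were close to CTCF, 105 were far and 722 overlapped CTCF, so that 32.7% (95% Wilson interval 25.8 to 40.4%) of its cohesin-only peaks were close. Those 51 peaks had a median score of 132, a median width of 329 bp and a median gap of 2697 bp, against 114, 407 bp and 2872 bp on chromosomes 1 to 19. The X medians are given without intervals. The cell line is male, and the part of X copy number in these values was not tested.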
